A study of Mus musculus with 22 samples.

Results

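Ins1, Ins2 and Iapp are the hormone genes of the pancreatic beta cell: Ins1 and Ins2 encode the pair of mouse insulins and Iapp encodes amylin (islet amyloid polypeptide). They were taken by symbol from the deposited table of TPM, a length-corrected transcript abundance that sums to the same total in every library. Each symbol had 1 row, so the 3 genes are 3 of the 57010 rows, and all 3 passed the filter on low values that left 16756 genes for testing.

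The libraries came from poly(A) RNA of isolated islets of male mice aged 5.5 weeks, 1 mouse per library, 22 in all. The mice were wild type (WT) or heterozygous (Het) for the S64F change in MAFA, on a background labelled C57 or one labelled Mixed, whose strains the labels do not name. Each WT group held 5 mice and each Het group 6. The design asks what the heterozygous change does to islet RNA, and whether background alters it. No treatment or transgene is named in the labels, and how the S64F allele was made is not given in the sources used here.

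Insulin is made as a preprohormone that enters the endoplasmic reticulum, is folded and oxidised there, and is cut to the mature hormone in the secretory granule. Amylin is processed by the same convertases, is amidated at its end, and is co-secreted with insulin from the same granules. MAFA is a beta-cell transcription factor known to bind the C1 (RIPE3b) element of insulin promoters, next to the E1 element bound by basic helix-loop-helix factors such as NEUROD1 and close to homeodomain sites bound by PDX1.

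Windows before the annotated starts of Ins1 and Iapp are shown because these factors act at promoters. Sites outside the windows are not covered. Both are the 250 bases before the RefSeq gene start, on the + strand of GRCm38.p6, at chr19:52264047-52264296 for Ins1 and chr6:142298175-142298424 for Iapp. Capitals mark matches on either strand to TAAT, the homeodomain core, and to CANNTG, the E-box.
Ins1: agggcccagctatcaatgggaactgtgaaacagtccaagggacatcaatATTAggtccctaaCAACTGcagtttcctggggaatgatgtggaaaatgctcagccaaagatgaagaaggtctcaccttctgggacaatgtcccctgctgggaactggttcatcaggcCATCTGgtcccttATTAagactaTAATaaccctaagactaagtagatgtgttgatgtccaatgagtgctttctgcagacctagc
Iapp: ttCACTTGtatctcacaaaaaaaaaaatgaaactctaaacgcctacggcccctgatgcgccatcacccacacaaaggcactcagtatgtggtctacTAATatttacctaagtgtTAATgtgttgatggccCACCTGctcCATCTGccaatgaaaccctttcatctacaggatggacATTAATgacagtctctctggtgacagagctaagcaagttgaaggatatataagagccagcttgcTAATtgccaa
TAAT matched 3 times in the Ins1 window and 5 times in the Iapp window, where a pair of matches on opposite strands overlaps. Of 32851 RefSeq windows of this length, 54.9% held TAAT. The E-box matched 2 times in Ins1 and 3 times in Iapp, against 66.2% of windows with a match. A core motif of MAF factors, TGCTGA, matched in neither window, and 16.1% of windows held it. The core motif of CREB factors, TGACG, matched in neither either, and 17.8% of windows held it. The counts describe these letters and say nothing of binding or of sites beyond the windows, such as those after the annotated start.

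Just downstream of the RefSeq start of Ins1, bases 21 to 50 counted from that start (chr19:52264317-52264346, + strand) hold the letters TTCAGC and, 9 bases further on, the E-box CATCTG. The stretch is shown because its letters resemble the C1 and E1 arrangement, and it was chosen after the sequence was seen.
Ins1 stretch: ctgcagcTTCAGCccctctggcCATCTGcc
Capitals mark the pair of motifs. Over the full RefSeq windows, which also hold the bases after the start, 549 of 32851 had both on the same strand. The pattern was read from this gene, so that count supports nothing about it.

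The targeted gene, Mafa, was measured first. Mafa averaged 441 ± 87.6 TPM in C57 WT (SD, n = 5) and 117 ± 23.2 in C57 Het (n = 6), and 598 ± 143 in Mixed WT (n = 5) and 152 ± 37.1 in Mixed Het (n = 6), with no overlap on either background. S64F changes the protein, and a TPM per gene does not show which allele was transcribed, so these levels do not by themselves check the genotype. In 3 libraries, all WT, mitochondrially encoded transcripts took over 8% of TPM (8.09%, 9.76% and 9.76%, against 2.8% to 6.03% in the others). Results that rest on them are given without them too. Markers of beta, alpha, delta, acinar, duct, endothelial, immune and mesenchymal cells were all detected, none of the lists' genes was at 0 in every library, and the acinar list summed to between 234 and 2213 TPM. The labels number the libraries group by group, which means that library order and group cannot be told apart.

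Ins2 was the most abundant transcript in all 22 libraries. Ins1 ranked second in all 10 WT libraries and in 7 of the 12 Het libraries, and had rank 3 in the other 5. Iapp had rank 3 in 6 of the 10 WT libraries and in 0 Het libraries, where its rank was 4 in 9 and 5 in 3. Together the 3 genes took 42.5% ± 3.27 of TPM in WT (SD, n = 5) and 34.6% ± 2.17 in Het (n = 6) on C57. On Mixed they took 42.8% ± 3.26 (n = 5) and 30.9% ± 3.33 (n = 6). The lowest of all 22 shares was 24.7%, in a Mixed Het mouse, and the highest 47.3%, in a Mixed WT mouse.

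Ins1 is the insulin gene on chromosome 19 and encodes insulin I. In C57 WT its TPM was 125412, 132675, 133379, 136274 and 136537, and in C57 Het it ran from 76496 through a median of 87510 to 95933. Every C57 Het library lay below every C57 WT library, and the gap between the groups exceeded the range within either. In Mixed WT the TPM values were 124469, 136548, 137899, 143586 and 152526, and in Mixed Het 70051 to 100396 with a median of 83851. Again all 6 Het libraries lay below all WT libraries, although both Mixed groups were wider than their C57 counterparts.

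Ins1 therefore fell with genotype on both backgrounds, to 65.9% of the WT mean in C57 and 60.4% in Mixed. In bulk islets fewer beta cells and less Ins1 RNA per beta cell cannot be told apart. The difference in log2(TPM + 1) was -0.61 (SE 0.16, 95% interval -0.94 to -0.27, limma adjusted p = 0.00589) in C57 and -0.73 (SE 0.16, interval -1.07 to -0.4, limma adjusted p = 0.00103) in Mixed. Of the 3 hormone genes, 1 passed on each background, Ins1 both times. Over all 16756 genes, 38.0% passed in C57 and 44.1% in Mixed, with 11.6% and 13.5% passing as lower. That split depended on the scaling, and with median-of-ratios scaling 3293 genes passed as higher and 3300 as lower in C57 and 3663 and 3750 in Mixed, or 19.7% and 22.4% of all genes as lower. Genes whose Het libraries all lay below all WT libraries made up 5.04% of those tested in C57 and 5.76% in Mixed. An exact permutation test of Ins1 alone gave p = 0.00216 on each background, the smallest p that 5 against 6 libraries can give. The C57 call was lost with median-of-ratios scaling (-0.72, limma adjusted p = 0.0638). Both calls were lost with no filter on low values (limma adjusted p = 0.853 in C57 and 0.756 in Mixed), where the differences stayed and the SE rose to 1.22. With the filter but without limma's mean-variance trend, both passed (adjusted p = 1.63e-05 and 7.41e-07). Quantile normalization, which sets Ins1 by its rank of 2 or 3 alone, lost both calls too (limma adjusted p = 0.156 and 0.338). The difference between the backgrounds was -0.13 (interval -0.6 to 0.35, limma adjusted p = 0.763), where 7.36% of all genes passed.

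Ins2, on chromosome 7, encodes insulin II and is the ortholog of human INS. Its TPM in C57 WT was 220530, 264176, 265828, 271480 and 280274, and in C57 Het it ran from 206214 through a median of 230983 to 249016. The lowest C57 WT library lay inside the Het range, and the other 4 lay above it. In Mixed WT Ins2 read 239867, 239877, 258274, 271283 and 289237 TPM, and in Mixed Het 144690 to 229064 with a median of 190445. Here every Het library lay below every WT library.

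Ins2 in Het reached 87.6% of its WT mean on C57 and 73.2% on Mixed. Neither difference passed the test over all genes, at -0.19 in C57 (SE 0.21, interval -0.62 to 0.24, limma adjusted p = 0.497) and -0.46 in Mixed (SE 0.21, interval -0.89 to -0.028, limma adjusted p = 0.0773). The residual SD of Ins2 was 0.16 on the log2 scale, whereas the spread that limma's mean-variance trend gave to genes of its abundance was 0.75 and the moderated value used was 0.34. With limma fitted without that trend, the Mixed difference passed (adjusted p = 0.000818) and the C57 difference did not (adjusted p = 0.134). The exact permutation test of Ins2 alone, unadjusted, gave p = 0.00433 in Mixed and p = 0.0411 in C57. The difference between backgrounds was -0.27 (interval -0.88 to 0.34, limma adjusted p = 0.591; permutation p = 0.0516).

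Iapp, on chromosome 6, encodes amylin, which slows gastric emptying and restrains glucagon release. In C57 WT its TPM was 20944, 29814, 32259, 36366 and 37740, and in C57 Het it ran from 24534 through a median of 29445 to 39466. The groups overlapped over nearly their whole range. In Mixed WT Iapp read 22000, 29257, 31566, 31818 and 32395 TPM, and in Mixed Het 28981 to 41544 with a median of 34585. Of the 6 Mixed Het libraries, 3 lay above every Mixed WT library and none lay below the lowest.

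Iapp in Het reached 96.7% of its WT mean on C57 and 119% on Mixed. The log2 differences were -0.033 (SE 0.17, interval -0.39 to 0.32, limma adjusted p = 0.899) and 0.26 (SE 0.17, interval -0.1 to 0.61, limma adjusted p = 0.236), and the difference between them was 0.29 (interval -0.22 to 0.8, limma adjusted p = 0.473). None of these passed, and the intervals leave room for a decrease or an increase of some size on either background. Quantile normalization turned the Mixed difference to -0.76 and called it (limma adjusted p = 0.0253). That normalization sets a gene's value by its rank in the library alone, so this value reflects rank and not level. Iapp had rank 3 in 6 WT libraries and in 0 Het libraries. The lowest Iapp values of both WT groups came from libraries over 8% mitochondrial TPM. Without those 3 libraries the differences were -0.23 in C57 and 0.16 in Mixed. With mitochondrial share as a covariate they were -0.27 in C57 and -0.0099 in Mixed. Across the 22 libraries Iapp correlated with mitochondrial share at r = -0.56, and at r = -0.57 after subtracting group means, a description over libraries that share their groups and totals. For Ins1 the correlation after subtracting group means was -0.08, and its differences were -0.62 in C57 (limma adjusted p = 0.0228) and -0.74 in Mixed (limma adjusted p = 0.00204) without the 3 libraries.

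**Figure D1:**
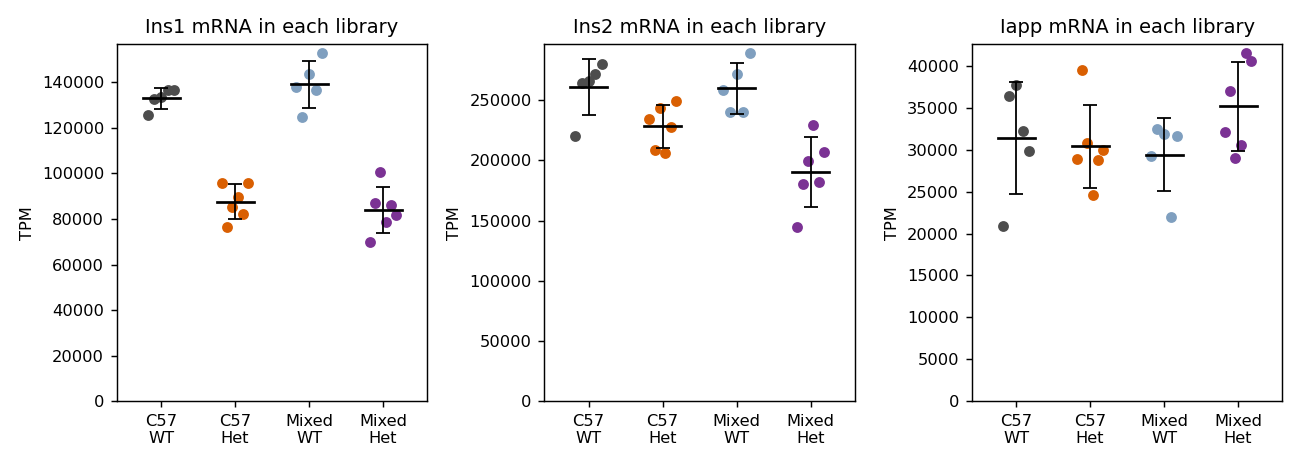
TPM of Ins1, Ins2 and Iapp in each library (points), by group, with the group mean (line) and SD (bars) and axes starting at 0. Ins1 separates Het from WT on both backgrounds, Ins2 separates them in Mixed, and the Iapp groups overlap on both.

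**Figure D2:**
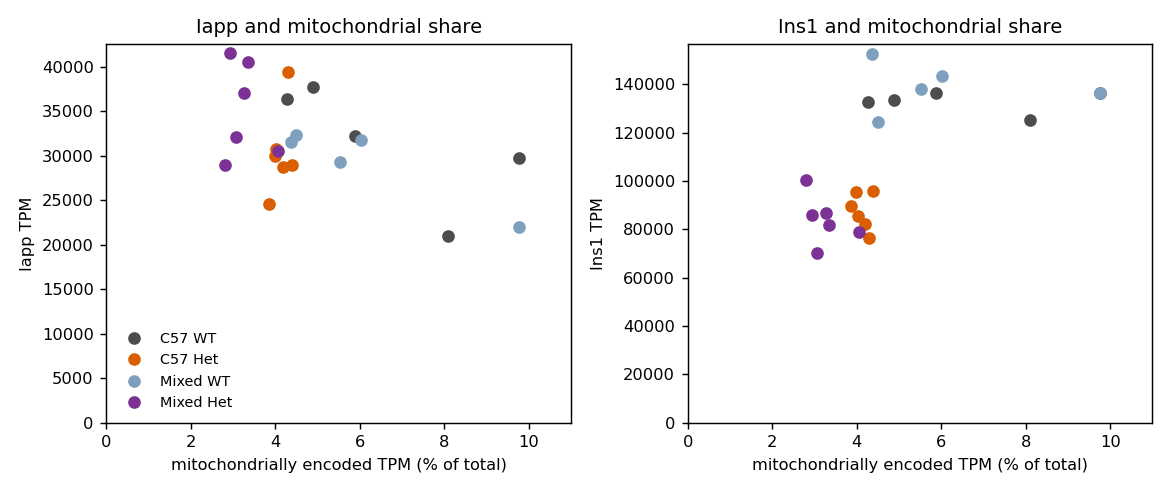
TPM of Iapp (left) and Ins1 (right) against the mitochondrially encoded share of TPM in percent, 1 point per library, coloured by group. The 3 libraries beyond 8% are WT (2 of them coincide in the Ins1 panel) and include the lowest Iapp value of each WT group, while their Ins1 values lie with the other WT libraries.

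Ratios between the 3 genes do not depend on the library total. Ins1 made up 33.9% ± 1.37 of insulin TPM in C57 WT (range 32.8 to 36.3, n = 5) and 27.7% ± 1.65 in C57 Het (26.0 to 30.3, n = 6). In Mixed it made up 34.9% ± 0.816 in WT (34.2 to 36.3, n = 5) and 30.8% ± 3.12 in Het (25.6 to 33.5, n = 6). The Het libraries lay below all WT libraries on both backgrounds. The Mixed Het group was uneven, with 4 libraries between 32.1 and 33.5% and the other 2 at 25.6 and 28.3%.

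The ratio of Ins1 to Ins2 was lower in Het, from 0.512 to 0.384 in C57 (log2 difference -0.42, SE 0.062, exact permutation p = 0.00216, adjusted over 10 ratio tests 0.0216) and from 0.536 to 0.447 in Mixed (-0.27, SE 0.092, exact permutation p = 0.00649, adjusted 0.0216). Within the same libraries Ins1 was thus lower relative to Ins2 in Het. The Mixed call was lost without any 1 of Mixed WT replicates 1, 3, 4 or 5 (adjusted p 0.0595 to 0.0952). Without the 3 libraries of high mitochondrial share the differences were -0.39 and -0.25 (adjusted p = 0.0523 and 0.0635), with fewer splits to draw on. The difference between backgrounds was 0.14 (permutation p = 0.232, adjusted 0.258), and it was 0.22 (adjusted p = 0.0394) without Mixed Het replicate 4.

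Measured in TPM, Ins1 accounted for 58.4% of the Het minus WT difference in insulin TPM in C57 and 44.2% in Mixed. The Het minus WT difference of mean TPM was -45341 for Ins1 and -32329 for Ins2 in C57, and -55035 and -69475 in Mixed. Over the same comparisons Gcg, the glucagon gene of alpha cells, was higher by 49815 and 66217 TPM. Gcg TPM ran from 14638 to 52775 in WT and from 60916 to 109449 in Het. As TPM sums to a constant, these opposite movements are not independent of each other.

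Iapp was higher relative to insulin in Mixed Het. Per 100 TPM of insulin there were 7.39 ± 1.09 TPM of Iapp in Mixed WT (5.84 to 8.89, n = 5) and 13.0 ± 2.55 in Mixed Het (9.68 to 15.5, n = 6), and the groups did not overlap. The ratio differed by 0.8 on the log2 scale (SE 0.16, exact permutation p = 0.00433, adjusted over 10 ratio tests 0.0216). In C57 the values were 7.95 ± 1.41 (6.05 to 9.45, n = 5) in WT and 9.71 ± 2.07 (8.29 to 13.9, n = 6) in Het, which overlapped (0.28, SE 0.16, exact permutation p = 0.119, adjusted 0.17). The difference between backgrounds was 0.52 (permutation p = 0.0344, adjusted 0.0687). Without the 3 libraries of high mitochondrial share the Mixed difference was 0.72 (adjusted p = 0.0523), so the call was lost at nearly the same size. Quantile normalization, which fixes Ins2 to 1 value and sets Ins1 and Iapp by rank alone, turned the Mixed difference to -0.67 (adjusted p = 0.411). Rodent delta cells are known to express Iapp too, and their part in this ratio was not tested. The 4 delta-cell markers summed to 5539 to 15969 TPM in WT and 10010 to 32011 TPM in Het. Sst, the somatostatin gene, averaged 7158 TPM in C57 WT, 11340 in C57 Het, 10167 in Mixed WT and 25368 in Mixed Het. The marker sums mostly reflect that gene.

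**Figure D3:**
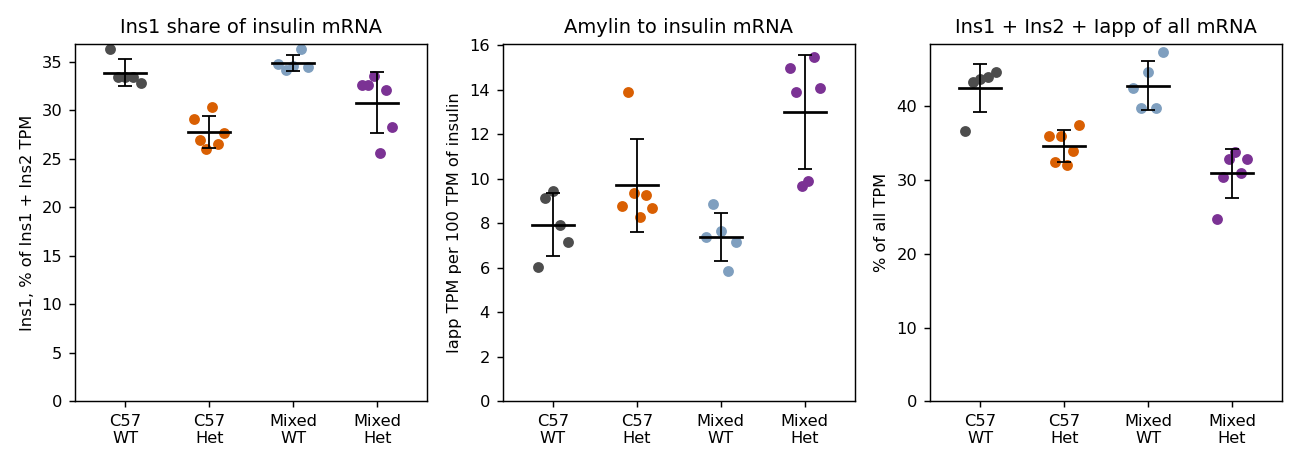
Ins1 as percent of Ins1 plus Ins2 TPM, Iapp TPM per 100 TPM of insulin, and the percent of all TPM taken by the 3 genes, by library (points) with group mean (line) and SD (bars). Ins1's share is lower in Het on both backgrounds, and Iapp per insulin is separated by genotype in Mixed.

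Background alone left the 3 genes within the error of the test. In WT the Mixed minus C57 differences were 0.063 for Ins1, -0.003 for Ins2 and -0.08 for Iapp (limma adjusted p = 0.851, 0.996 and 0.818), with none of the 3 passing where 11.3% of all genes passed. In Het they were -0.063, -0.27 and 0.21 (limma adjusted p = 0.819, 0.368 and 0.407), again with none passing where 20.5% of all genes passed. The exact permutation test of Ins2 alone, unadjusted, gave p = 0.0173 in Het, where the Mixed mean was 83.4% of the C57 mean. Among Het mice, Iapp per insulin was higher on Mixed than on C57 (log2 difference 0.42, exact permutation p = 0.0173, adjusted 0.0433), and 9 of 12 fits without 1 library lost that call (adjusted p up to 0.126). These comparisons use the same groups as the genotype comparisons.

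Comparing Ins1 with Ins2 in level depends on the gene models behind the TPM, which are not given in the sources used here. Ins2 read 1.96 ± 0.114 times Ins1 in C57 WT and 1.87 ± 0.0655 times in Mixed WT (SD, n = 5 each), against 2.62 ± 0.21 and 2.28 ± 0.363 times in C57 and Mixed Het (n = 6 each). In GENCODE M21, Ins1 has 1 transcript of 1062 bases, Ins2 has 9 of 259 to 918 bases and Iapp has 2 of 294 and 839 bases. Of 1032 windows of 31 bases in the Ins1 transcript, 47 (4.55%) also occur in an Ins2 transcript, and the longest shared run is 56 bases. Reads from such runs could have been assigned to either gene, and how the authors treated them is not given.

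Beyond Mafa, the regulators of these genes moved both ways. Of 19 regulators tested, 4 rose and 6 fell in C57 and 3 rose and 8 fell in Mixed. Of all genes, 26.4% rose and 11.6% fell in C57, and 30.7% rose and 13.5% fell in Mixed. The list's median log2 difference was -0.13 in C57 and -0.26 in Mixed, beside 0.0827 and 0.104 over all genes. Mlxipl, which encodes the glucose-responsive factor ChREBP, fell by 1.85 on the log2 scale in C57 and by 2.3 in Mixed (limma adjusted p = 1.6e-08 and 3.41e-10), and Mafa by 1.91 and 1.98 (limma adjusted p = 1.14e-07 and 3.44e-08). Ldb1, a cofactor of LIM homeodomain proteins, fell by 0.57 and 0.46. Pdx1, which binds the TAAT sites of insulin promoters, had a log2 difference of -0.34 in C57 (limma adjusted p = 0.0831) and fell by 0.53 in Mixed (limma adjusted p = 0.00767). Nkx6-1, a beta-cell homeodomain factor, had -0.2 in C57 (limma adjusted p = 0.0893) and fell by 0.46 in Mixed. Among those that rose, Glis3 rose by 0.48 in C57 (limma adjusted p = 0.0145) and read -0.015 in Mixed. Foxa2 read 0.17 in C57 and rose by 0.68 in Mixed (limma adjusted p = 0.00212). Without the 3 libraries of high mitochondrial share, 1 regulator rose in C57, where 2836 of all 16756 genes rose, against 4422 with them. With median-of-ratios scaling 9 fell in C57 and 12 in Mixed, where 19.7% and 22.4% of all genes fell. Under that scaling Pdx1 (-0.46, limma adjusted p = 0.0145) and Nkx6-1 (-0.31, limma adjusted p = 0.0129) passed in C57.

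Of 25 genes tested for entry into and folding in the endoplasmic reticulum, 12 rose and 0 fell in C57 and 13 rose and 1 fell in Mixed, beside the 26.4% and 30.7% of all genes that rose. The medians were 0.31 and 0.28. Spcs1, of the signal peptidase that trims preproinsulin, rose by 0.61 and 0.85. P4hb, the protein disulfide isomerase PDI, rose by 0.45 and 0.65 from a WT mean of 746 and 855 TPM. Prdx4, a peroxiredoxin of this compartment, rose by 0.44 in C57 and 1.12 in Mixed, a difference that itself passed (0.69, limma adjusted p = 0.00773). Ero1a, an oxidase that drives disulfide formation, rose by 0.96 in C57, and its Mixed value was 0.26 (limma adjusted p = 0.128). Hspa5, the chaperone BiP, fell by 0.49 in Mixed (limma adjusted p = 0.0352) and read 0.16 in C57. With totals taken without the 13 genes over 1% of TPM, or with median-of-ratios scaling, 7 of the 25 rose in C57 and 8 in Mixed. Of all genes, 19.0% and 19.7% rose in C57 under these scalings, and 21.8% and 21.9% in Mixed. Those scalings moved the median of all genes in Mixed from 0.104 to -0.001 and -0.01. Without the 3 libraries of high mitochondrial share 6 rose in C57, where 2836 of all 16756 genes rose, against 4422 with them.

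Of the 7 processing genes tested, 5 rose and 0 fell on each background, beside 26.4% of all genes that rose in C57 and 30.7% in Mixed. The list's medians were 0.6 in C57 and 0.71 in Mixed. Pcsk1, the convertase that makes the first cuts in proinsulin and proamylin, rose by 1.33 in C57 and 1.05 in Mixed, from 231 ± 50.8 to 579 ± 118 TPM and from 307 ± 29.5 to 634 ± 44.7 TPM (SD). Pcsk2 rose by 0.6 and 0.71, and Cpe, the carboxypeptidase that trims the cut ends, by 0.76 and 0.72. Pam, which amidates amylin, rose by 0.94 and 1.27. In these 4 genes all Het libraries lay above all WT libraries on both backgrounds. The share of all genes that did so is not given here, so this describes these genes alone. Pcsk1n, an inhibitor of PCSK1, rose in Mixed (0.65) and read 0.14 in C57 (limma adjusted p = 0.346). Several of these genes are also expressed in alpha cells, whose part in these values was not tested. The 7 alpha-cell markers summed to 15880 to 57548 TPM in WT and 65518 to 117543 TPM in Het. Gcg alone ran from 14638 to 52775 TPM in WT and from 60916 to 109449 in Het. The marker sums mostly reflect that gene.

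Among 14 genes of granule cargo and zinc loading, 7 rose and 0 fell in C57 and 7 rose and 2 fell in Mixed, with medians of 0.23 and 0.21. Of all genes, 26.4% rose and 11.6% fell in C57, and 30.7% rose and 13.5% fell in Mixed. The share of the list that fell in Mixed was near that of all genes. Chgb (0.73 and 0.8), Scg2 (0.9 and 1) and Vgf (0.84 and 1.91), granins and a related granule protein, rose on both backgrounds. Npy, a peptide hormone, rose by 1.8 and 2.04 with wide spread, from 91.5 ± 34.8 to 458 ± 342 TPM (SD) in Mixed. Slc30a8, the zinc transporter that loads zinc for insulin crystals, fell by 0.57 in Mixed and read 0.21 in C57, and the difference passed (-0.79, limma adjusted p = 0.0246). Sytl4, granuphilin of the insulin granule, fell by 0.61 in Mixed and read 0.15 in C57 (difference -0.76, limma adjusted p = 0.00636). Chga, the most abundant of the list, read 0.26 and 0.16 and did not pass.

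**Figure D4:**
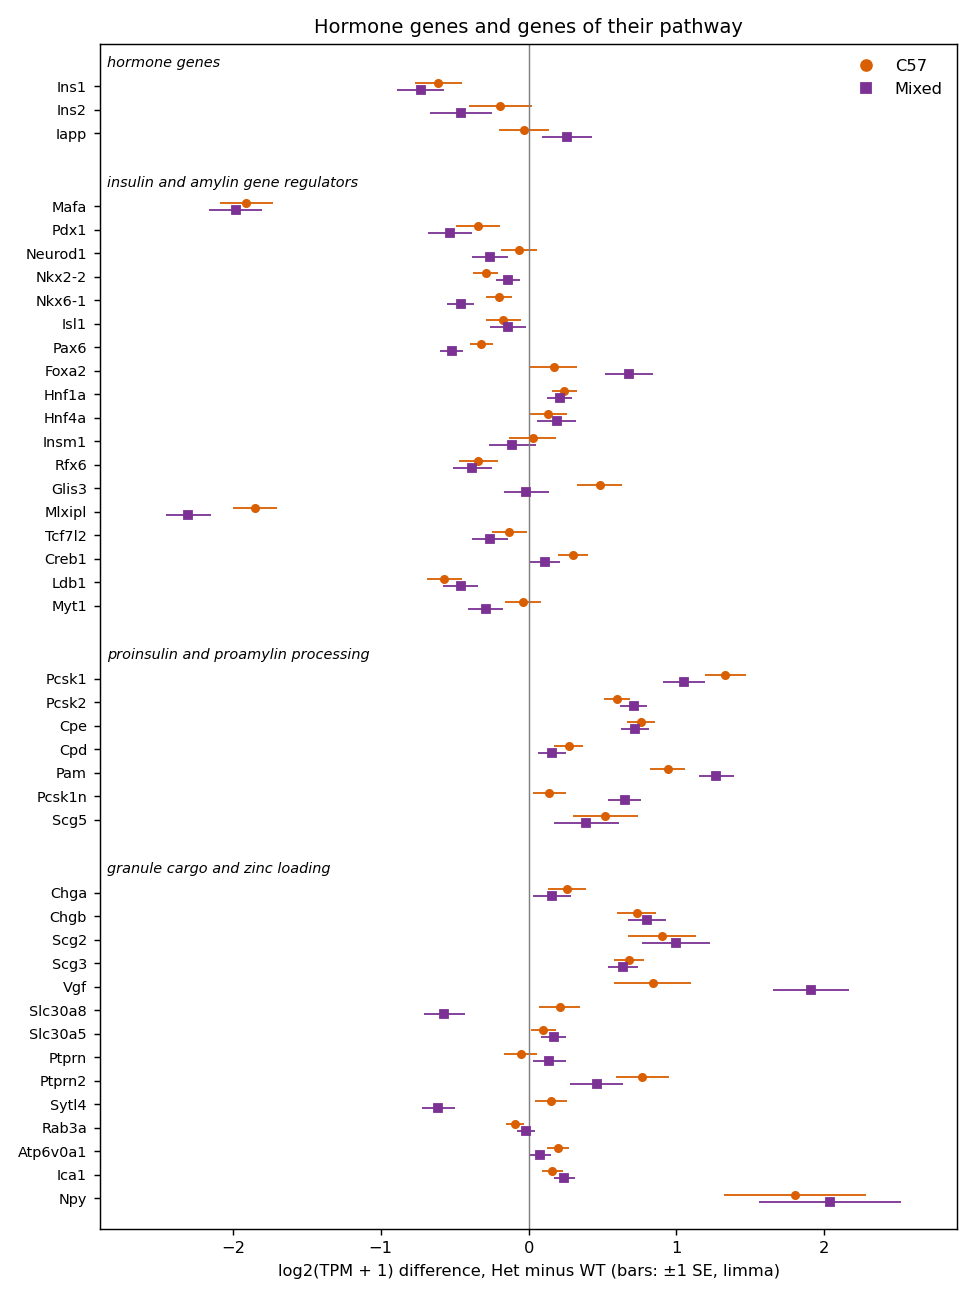
Log2(TPM + 1) difference, Het minus WT, with 1 SE of limma, for the 3 hormone genes and the tested genes of 3 lists that are reported here, in C57 (circles) and Mixed (squares). Mafa and Mlxipl lie farthest left, and Pcsk1, Pcsk2, Cpe and Pam lie right of 0 on both backgrounds while Ins1 lies left.

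Of 7 other islet hormones tested, 2 rose and 0 fell in C57, a share near the 26.4% of all genes that rose there, and 4 rose and 1 fell in Mixed, where 30.7% of all genes rose. Gcg rose by 1.37 and 2.18 and Sst, the somatostatin of delta cells, by 0.67 and 1.32. Pyy (0.95) and Gast (1.34) rose in Mixed. Ucn3, a peptide of mature beta cells, read -0.32 in C57 (limma adjusted p = 0.0952) and fell by 1.5 in Mixed, and the difference between backgrounds passed (-1.18, limma adjusted p = 0.00342). To set beside the marker counts, 26.4% of all genes were higher and 11.6% lower in C57, and 30.7% and 13.5% in Mixed. The 11 beta-cell markers, which include no member, had 1 gene higher and 2 lower in C57 and 0 higher and 9 lower in Mixed. They summed to 4859 to 7236 TPM in C57 WT and 5691 to 7139 in C57 Het, and to 6751 to 8424 in Mixed WT and 5276 to 5935 in Mixed Het. The summed acinar markers had medians of 400 TPM in WT and 949 in Het on C57, and 557 and 1112 on Mixed. Of the other marker lists, alpha had 6 of 7 genes higher on each background and 1 lower in Mixed, delta had 4 of 4 higher on each, and the PP marker Ppy passed on neither. Acinar had 9 of 14 higher in C57 and 4 in Mixed, and duct 2 of 5 higher in C57 and 4 higher and 1 lower in Mixed. Endothelial had 3 of 6 lower in C57 and 0 called in Mixed. Immune had 1 of 5 lower in C57 and 5 higher in Mixed, and mesenchymal 1 of 6 lower in C57 and 4 higher in Mixed. The part of these cells in the hormone values was not tested, and with the acinar score as a covariate Ins1 read -0.65 in C57 and -0.77 in Mixed (limma adjusted p = 0.0319 and 0.00595).

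Of 10 receptor and degradation genes tested, 3 rose and 2 fell in C57 and 2 rose and 2 fell in Mixed, beside 26.4% and 30.7% of all genes that rose and 11.6% and 13.5% that fell. Ramp3, a partner of the amylin and adrenomedullin receptors, had the largest difference of the list. It fell by 0.75 in C57, from 22.3 ± 12.3 to 11.6 ± 1.08 TPM (SD, n = 5 and 6, limma adjusted p = 0.00615) with overlapping groups, and read -0.14 in Mixed (limma adjusted p = 0.602). Without the 3 libraries of high mitochondrial share 1 of the list rose and 1 fell in C57. Of all 16756 genes, 2836 rose and 1023 fell there, against 4422 and 1940 with those libraries. Ide, the enzyme that degrades insulin and amylin, rose by 0.28 and 0.44, and Igf1r fell by 0.4 and 0.44. Calcr, the core of the amylin receptor, averaged at most 0.0181 TPM in a group and was below the filter, whereas its partner Ramp1 rose by 0.45 and 0.55. None of the 3 that rose in C57 passed with median-of-ratios scaling. Of 5 relatives of insulin and amylin tested, 2 rose in C57 and 3 in Mixed, too few to set against the shares of all genes. Adm2 (intermedin), of the amylin family, rose by 1.02 and 1.01 from 0.174 and 0.375 TPM, and Calca, of the same family, by 0.4 and 0.71. Igf1, of the insulin family, read 0.18 in C57 and rose by 0.94 in Mixed. Over all lists, 43 genes were called in C57 and 51 in Mixed. Of these, 11 and 8 lost their call under at least 1 of 3 other scalings and 0 changed sign, while 6 list genes in each background gained a call under at least 1 scaling.

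Each hormone gene was paired with the genes whose log2(TPM + 1) followed it most closely over the 22 libraries, among 7715 genes of mean TPM of at least 10. For Ins1 these were Tmprss4, Prss53, Enho, Ppp1r1a and Asic1 (Pearson r 0.94 to 0.9). For Ins2 they were Ucn3, Pcx, Vstm2l, Defb1 and Gstm2 (0.87 to 0.84), and for Iapp Sec61b, Iscu, Coa3, Ostc and Ndufc2 (0.81 to 0.74). Ins1 and Ins2 correlated at r = 0.77, and Iapp with them at -0.26 and -0.15. After subtracting group means, r with the 5 genes was 0.72 to 0.86 for Iapp and 0.47 to 0.63 for Ins2. For Ins1 it was 0.64 with Tmprss4 and 0.46 with Prss53, but 0.11 with Enho, 0.0089 with Ppp1r1a and -0.17 with Asic1. Ins1 and Mafa went from 0.87 to -0.2. These are descriptions over libraries that share groups and a fixed total.

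Genes beside the 3 loci in RefSeq did not share one direction. Th, tyrosine hydroxylase, beside Ins2, fell by 2.35 in C57 and 2.26 in Mixed, from 68.9 to 12.7 TPM and from 48.8 to 8.88 TPM (limma adjusted p = 3.39e-08 and 2.63e-08). Igf2, on the other side of Ins2, averaged at most 0.494 TPM in a group and was below the filter. Slco1a6, an organic anion transporter beside Iapp, fell by 0.93 and 0.66, and Pyroxd1 on its other side read 0.14 and -0.1 (limma adjusted p = 0.43 and 0.55). Sorcs1, beside Ins1, rose by 0.58 and 0.95 at a mean of at most 1.98 TPM in a group, and Xpnpep1 read 0.13 in C57 (limma adjusted p = 0.158) and rose by 0.23 in Mixed.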

How the data were processed

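The authors deposited 1 table of TPM for 57010 Ensembl genes and 22 libraries, per the file headers. The submitters' processing notes name STAR 2.7.10b, MultiQC 1.7 and mm39, without roles. The counting tool, annotation and gene lengths are not given in the sources used here. TPM keeps no depth, so depth is unknown and no counting interval was computed. TPM divides by a total, so a fall in abundant genes raises the others.

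The filter required 1 TPM or more in at least 5 libraries and kept 16756 genes. limma 3.58.1 in R 4.3.3, with trend, fitted log2(TPM + 1) of the 4 groups, which understates changes of low genes. Benjamini-Hochberg adjustment ran over all genes tested, and an adjusted p under 0.05 counted as a call. Ratios were tested by two-sided exact permutation over 462 (WT against Het), 252 or 924 splits, and interactions by 100000 permutations of residuals within background. Each mouse is 1 library. The tests were checked on simulated data. For limma these were normal log values drawn for each gene on its own, so that check does not cover the fixed total of TPM.

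The members and gene lists were chosen with earlier results of these data known. The 9 marker lists were beta, alpha, delta, PP, acinar, duct, endothelial, immune and mesenchymal cells. Besides the members, Mafa and Gcg, the text names the 5 genes most like each member and RefSeq neighbours. List genes named were drawn mainly from the 3 largest called differences each way in each background and the 3 most abundant of a list. Genes of a list of 8 or fewer were also drawn on. Not every list gene that qualified is named. A gene of the lists is not reported singly here. RefSeq promoters (GRCm38.p6) matched for Ins1 and Iapp, so 2 of the 3 members are shown. GENCODE M21 gave transcript lengths, and no coordinates of the table were used. Alternatives were another pseudocount, filter, scaling, covariate, weighting, threshold and left-out libraries.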

Additional observations from a re-analysis of the deposited data

Results flagged for a closer look

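In each of 24 checks of a group's lowest or highest library, chance singles out about 1 group in 20. Ins2 in C57 WT was far lower in 1 library, at 220530 TPM, than in the other 4. In C57 WT 1 library had a ratio of Ins1 to Ins2 of 0.569, far above the others. The share of TPM taken by the 3 genes in C57 WT was far lower in 1 library, at 36.7%. All 3 of these values came from C57 WT replicate 1, which is also 1 of the 3 libraries over 8% mitochondrial TPM. In C57 Het 1 library had a ratio of Iapp to insulin of 0.139, far above the other 5.

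Of 87 pathway genes tested, 6 had a genotype difference that itself differed between backgrounds in limma, given as Mixed minus C57 on the log2 scale. That share is no higher than the 7.36% of all genes that passed this test. Ero1a had -0.7 (limma adjusted p = 0.0326), with Het minus WT of 0.96 in C57 and 0.26 in Mixed. Prdx4 had 0.69 (limma adjusted p = 0.00773). Pcsk1n had 0.52 (limma adjusted p = 0.0449), Slc30a8 -0.79 (limma adjusted p = 0.0246), Sytl4 -0.76 (limma adjusted p = 0.00636) and Ucn3 -1.18 (limma adjusted p = 0.00342). The marker lists were counted apart. In this test 5 of 11 beta-cell markers passed as lower. As higher passed 3 of 7 alpha, 1 of 4 delta, 1 of 5 duct, 3 of 5 immune and 4 of 6 mesenchymal markers. Of the PP, acinar and endothelial markers 0 passed.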

How the results depend on the processing

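Depth is unknown, so precision rests on 5 or 6 mice per group. No paired analysis was possible because the labels give no replicate numbers shared between groups.

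Quantile normalization gives the gene of rank 1, Ins2 in every library, 1 value, so Ins2 differences are 0 by construction. Ins1 had rank 2 or 3 and Iapp rank 3 to 5, so their differences under it reflect rank and not level. Quantile normalization gave Ins1 -0.52 in C57 and -0.35 in Mixed (both calls lost), an interaction of 0.17 and Mixed minus C57 in Het of 0.17. Iapp read -0.76 in Mixed (adjusted p = 0.0253, a call against the direction of the main value), with an interaction of -0.43 and Mixed minus C57 of 0.35 in WT and -0.081 in Het. The Ins1 to Ins2 ratio read -0.52 and -0.35 (calls lost), and Iapp to insulin -0.2 in C57, -0.67 in Mixed, -0.47 for the interaction, 0.35 in WT and -0.13 in Het. For Ins1, no filter on low values kept -0.61 and -0.73 with an SE of 1.22 and lost both calls, and median-of-ratios scaling gave -0.72 in C57 without a call. The cause of the Ins1 calls lost with no filter and with median-of-ratios scaling was not tested.

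Ins2 in Mixed kept -0.46 and passed with a pseudocount of 0.1, a mean TPM of at least 5, no trend, or the single-gene exact test. That test, chosen after seeing the data, also put Ins2 under 0.05 at -0.19 in C57 and -0.27 for Mixed minus C57 in Het, where no trend gave the same. With mitochondrial share as a covariate Iapp read -0.27 in C57 and -0.0099 in Mixed.

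Leaving out 1 library kept every Ins1 call (-0.63 to -0.57 in C57, -0.79 to -0.68 in Mixed). Ranges that crossed 0 were Ins2 Mixed minus C57 in WT (-0.062 to 0.025), Iapp in C57 (-0.17 to 0.04) and Iapp Mixed minus C57 in WT (-0.22 to 0.021). Calls changed in some of these fits for the Ins1 to Ins2 ratio in Mixed (-0.31 to -0.2), its interaction (0.11 to 0.22) and its Mixed minus C57 difference in WT (0.044 to 0.1) and Het (0.17 to 0.28), and for Iapp to insulin in the interaction (0.44 to 0.63) and in Mixed minus C57 Het (0.36 to 0.53). Without the 3 libraries over 8% mitochondrial TPM, chosen after seeing the data, 4 ratio calls were lost at -0.39, -0.25, 0.72 and 0.42. The value of 0.42 is Iapp to insulin for Mixed minus C57 in Het, which uses none of these WT libraries. Only its adjustment over the ratio tests changed. The other lost calls had fewer splits to draw on.

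List counts moved as follows, and calls over all genes moved too. Of all 16756 genes, 4422 were higher in C57, against 3192 and 3293 under the 2 scalings. Without the 3 libraries over 8% mitochondrial TPM 2836 were higher in C57. In C57, regulators higher became 1 at a threshold of 0.01 or without those 3 libraries. Endoplasmic reticulum genes higher became 7 under 2 scalings and at 0.01, and 6 without those libraries. Receptor genes higher became 0 under 2 scalings and at 0.01 and 1 without those libraries, where receptor genes lower became 1. Granule genes lower and hormones lower became 1 under 2 scalings. Hormones and relatives higher became 1 at 0.01. In Mixed, endoplasmic reticulum genes became 8 higher and 2 lower under 2 scalings and 0 lower at 0.01, and receptor genes lower became 1 at 0.01.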
